A study of Mus musculus with 12 samples.

Results

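MOF ChIP-seq peaks of Mof+/- visceral white adipose tissue that lay away from annotated gene starts are described here. A peak was counted when it was on chromosomes 1 to 19 or X and its nearest edge was more than 1 kb from every transcription start site of GENCODE mouse M21. Of the 716 Mof+/- peaks on these chromosomes, 317 met this rule and 399 were promoter peaks. The Mof+/+ list held 19744 peaks on the same chromosomes, 8722 of them over 1 kb from a start. The 317 peaks lay on 19 chromosomes and 0 of them on chromosome X, whose 4 Mof+/- peaks were all promoter peaks. The 3 counted peaks nearest to the limit were 1019 bp from a start of Hoxb9, 1036 bp from Lmx1a and 1048 bp from Wt1, and the 3 promoter peaks nearest to it were 999 bp from Barhl1, 996 bp from Bad and 975 bp from Msx1.

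The labels give the strain as C57BL/6, and the study's methods say that its mice were backcrossed to C57BL/6J. The animals were 8 weeks old and on a standard diet. Mof+/- mice carried 1 functional copy of the gene for MOF and Mof+/+ mice carried 2, in every tissue and not in fat alone. There were 2 MOF ChIP libraries a genotype by the labels, from 2 littermates a genotype by the study's reporting form, while the design text speaks of 3 Mof+/- animals. The labels name 1 abcam antibody against MOF for all, and the reporting form lists other MOF antibodies, from abcam and Millipore. Each genotype had a single peak list and the lists do not say how libraries were combined, so no value below has a spread between animals, and differences between the lists were not tested. Intervals in brackets after a share are 95% intervals by Wilson's method, for counting error alone. They take each peak as independent, which neighbouring peaks of 1 region may not be, so they may be too narrow. In whole tissue, fewer cells with MOF at a site and less MOF per cell cannot be told apart.

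MOF, also called KAT8, is the lysine acetyltransferase that places most acetylation on lysine 16 of histone H4, a mark that loosens the packing of nucleosomes. It works in the MSL complex and in the NSL complex, and the latter is known for binding the promoters of broadly expressed genes. Sites away from promoters can be enhancers, ends of genes, unannotated starts or repeated sequence. Chromatin was cut with the enzyme CviKI-1, which recognises AGCT and GGCC as well as the related words AGCC and GGCT, and then sonicated, so fragment ends depended partly on the sequence.

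The members divided into 314 peaks of unique sequence and 3 of repeat-rich sequence. A peak was called repeat-rich when at least 50% of the 50-base words starting in it, the length of 1 read, occurred again in the reference genome of C57BL/6J mice on either strand. Repeat-rich members made up 0.946% (0.322 to 2.75), while 2.37% of all 716 Mof+/- peaks were repeat-rich. The other 14 repeat-rich peaks were promoter peaks. In 280 of the 317 members no 50-base word was repeated at all.

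To show what the members look like, 151 bases around the summit are given for 8 of them, in GRCm38 coordinates with each CG dinucleotide in capitals, since CpG content is compared between groups of members further on. The first 3 come from the unique members of highest fold enrichment, among those whose summit lay outside exons and whose window touched no untranslated region.
3′ side of Otx1, chr11:21994126-21994276, plus strand: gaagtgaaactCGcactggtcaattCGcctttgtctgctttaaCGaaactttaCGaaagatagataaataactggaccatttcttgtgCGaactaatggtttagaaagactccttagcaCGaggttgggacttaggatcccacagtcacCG
upstream of Igf2bp3, chr6:49227564-49227714, plus strand: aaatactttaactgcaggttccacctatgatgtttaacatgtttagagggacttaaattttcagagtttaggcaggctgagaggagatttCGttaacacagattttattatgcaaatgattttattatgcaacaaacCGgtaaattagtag
near 9530018H14Rik and Hoxa13, chr6:52254102-52254252, plus strand: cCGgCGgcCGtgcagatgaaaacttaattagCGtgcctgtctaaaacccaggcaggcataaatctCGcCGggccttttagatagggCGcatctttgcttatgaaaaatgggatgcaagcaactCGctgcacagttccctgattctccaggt
These windows held 7, 2 and 8 CpG dinucleotides. The next pair had the highest significance among such members that overlapped no Mof+/+ peak, the second being the first in list order of 5 that tied. The first is largely a run of the dinucleotide CT, interrupted by CG, and the second has 0 CpG.
intron of 1700041M19Rik, chr16:76866109-76866259, plus strand: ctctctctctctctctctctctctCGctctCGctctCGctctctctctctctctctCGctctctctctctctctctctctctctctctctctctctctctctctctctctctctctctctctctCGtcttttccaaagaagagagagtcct
intron of Gm4846, chr1:166491224-166491374, plus strand: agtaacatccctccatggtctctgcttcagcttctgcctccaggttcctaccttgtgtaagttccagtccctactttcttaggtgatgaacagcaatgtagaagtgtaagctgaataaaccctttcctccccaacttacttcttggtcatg
The last 3 are the repeat-rich members, in the order of their fold enrichment.
intron of Coro2a, chr4:46577303-46577453, plus strand: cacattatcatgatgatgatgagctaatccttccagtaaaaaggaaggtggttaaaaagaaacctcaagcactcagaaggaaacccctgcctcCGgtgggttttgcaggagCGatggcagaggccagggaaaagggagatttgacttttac
intron of Filip1l, chr16:57391398-57391548, plus strand: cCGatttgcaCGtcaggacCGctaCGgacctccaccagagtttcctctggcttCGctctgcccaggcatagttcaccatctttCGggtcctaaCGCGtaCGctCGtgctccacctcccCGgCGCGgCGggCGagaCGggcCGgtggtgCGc
chromosome 9 array near Gm11168, chr9:3006755-3006905, plus strand: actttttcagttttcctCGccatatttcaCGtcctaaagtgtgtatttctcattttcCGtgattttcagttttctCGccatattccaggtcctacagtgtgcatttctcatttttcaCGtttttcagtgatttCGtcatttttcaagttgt

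The members were modest in strength. Fold enrichment is the peak caller's ratio of ChIP fragments at a summit to those that input predicts there, each with 1 added. Its median was 4.29 (quartiles 3.78 and 4.91), the same median as for the Mof+/- promoter peaks. The median summit held 14 fragments (12 to 16) over a background of 2.26, and 186 members were at this lowest background of the list. The median width was 450 bp (327 to 722), against 431 bp for promoter peaks.

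**Figure D1:**
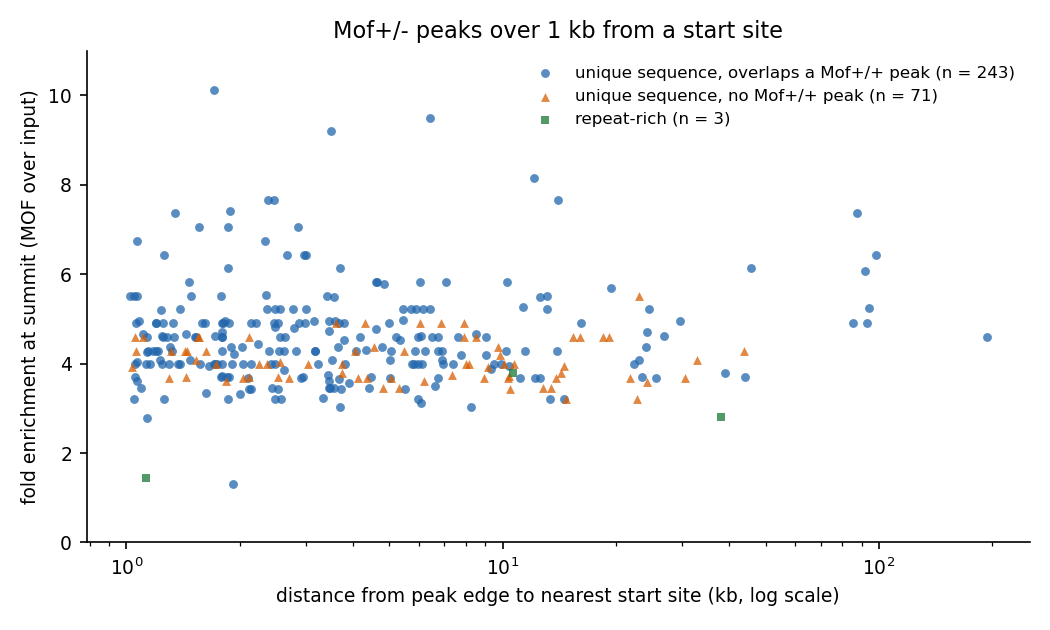
Fold enrichment at the summit against the distance from the peak edge to the nearest start site (log scale) for the 317 Mof+/- peaks over 1 kb away, with 1 point a peak. Points at 5 or more are almost all circles, which mark overlap with a Mof+/+ peak, and the square at 1.45 is the repeat array of chromosome 9.

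The 10 unique members of highest fold enrichment ranged from 7.36 to 10.1. The highest fold enrichment, 10.1, was at chr7:131555767-131557876, in an exon of Hmx2, a homeobox gene of the inner ear and nervous system, which at this place also lies within Fgfr2. It rested on 32 fragments over a background of 2.26, and the Mof+/+ peak that covers it had a fold enrichment of 12.2 with its summit 40 bp away. The next, 9.51, was at chr11:21993405-21995204 beside Otx1, a homeobox gene of the forebrain. Its summit was intergenic, beyond the 3′ end of the gene, and its edge lay 6411 bp away from an annotated Otx1 start. It held 30 fragments, and the Mof+/+ fold enrichment was 7.30. Sp9, a zinc finger gene of limb and forebrain, had the third at chr2:73275469-73277360 in one of its exons (fold enrichment 9.20). A peak 12092 bp upstream of Igf2bp3, which encodes an RNA-binding protein of embryonic and tumour cells, reached 8.15 at chr6:49227049-49228371. There the Mof+/+ value was 10.2. These 4 had Mof+/+ peaks of 7.30 or more.

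Among the next, a value of 7.67 from 24 fragments was found for the peak at chr6:52253315-52254987 (nearest 9530018H14Rik, with Hoxa13 as the nearest protein-coding gene) and for the peak at chr13:48658179-48660621 (2377 bp from Barx1, a homeobox gene of stomach and jaw). A peak in an intron of Mecom, a zinc finger gene of blood stem cells, had 7.42. The list of the 10 strongest, of which 9 are given here, ended with a peak 87234 bp from Mir148a and a peak in an intron shared by Gm47071 and Pitx1, both at 7.36. All 10 overlapped a Mof+/+ peak.

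Most members had a counterpart in the Mof+/+ list. At least 1 bp was shared with a Mof+/+ peak for 244 members, or 77.0% (72.0 to 81.3), and 73 shared none. Among all 716 Mof+/- peaks 84.8% overlapped, and among promoter peaks 91.0% (87.8 to 93.4). Of the 244, 183 lay wholly inside a single Mof+/+ peak, and 14.8% of all members met a rule of 50% of both peaks. The counterpart was far wider, at 2479 bp by its median where these members had 517.5 bp. It held a median of 23 fragments, but the lists differ in depth, with a lowest background of 3.52 for Mof+/+ against 2.26, and in the weakest −log10 p-value listed, 3.25 against 4.72. The member had the higher fold enrichment in 128 pairs and the Mof+/+ peak in 116.

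Overlap followed strength. Of the 126 members with a fold enrichment under 4, 66.7% (58.1 to 74.3) overlapped a Mof+/+ peak, of the 132 from 4 to 5 it was 77.3% (69.4 to 83.6), and of the 59 at 5 or more it was 98.3% (91.0 to 99.7). The 1 exception among the 59 was the run of CT in 1700041M19Rik. Summits were often not at the same base. The median distance between the paired summits was 418 bp, 53 of 244 pairs were within 100 bp and 180 within 1 kb.

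Several members could share 1 Mof+/+ peak. The 244 members touched 195 Mof+/+ peaks, of which 39 held 2 or more members and 11 held 3 or more. The Mof+/+ peak with the most, 5, ran from chr2:73267713-73281524 across Sp9. The 195 peaks had a median width of 1968 bp, against 609 bp for all Mof+/+ peaks. A wider peak is likelier to touch a member, so this difference is partly set by the choice of peaks. They included 63 within 1 kb of a start and 132 farther away. Of the 8722 Mof+/+ peaks over 1 kb from a start, 132 (1.51%, 1.28 to 1.79) were touched by a member.

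Distance from a start did not always mean separation from promoter signal. Of the 314 unique members, 87 (27.7%, 23.0 to 32.9) overlapped a Mof+/+ peak that came within 1 kb of a start site, and 65 (20.7%) overlapped a Mof+/+ peak that covered one. Counted once for each member, these Mof+/+ peaks had a median width of 5132 bp, which is partly set by the rule that they reach from a member to a start. Over all 716 Mof+/- peaks, 62.7% overlapped a Mof+/+ peak that came within 1 kb of a start, and among promoter peaks 90.7% did. A Mof+/- promoter peak lay within 5 kb of 33.1% of the unique members and within 50 kb of 50.6%. Members that overlapped a Mof+/+ peak reaching a start were 1709 bp from a start at the median, and members whose Mof+/+ peak did not were 4776 bp away. The same rule partly sets this difference.

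Over all members the median distance to a start was 3453 bp (1793 to 7385). There were 97 members at 1 to 2 kb, 100 at 2 to 5 kb, 59 at 5 to 10 kb, 54 at 10 to 50 kb and 7 beyond 50 kb. The share that overlapped a Mof+/+ peak was 84.5% (76.0 to 90.4), 82.0% (73.3 to 88.3), 72.9% (60.4 to 82.6) and 55.6% (42.4 to 68.0) in the first 4 bands. All 7 members beyond 50 kb overlapped one. Of these, 6 were nearest Mir148a and the other was nearest Eya1, at 193693 bp the farthest of all members, with a fold enrichment of 4.60.

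**Figure D2:**
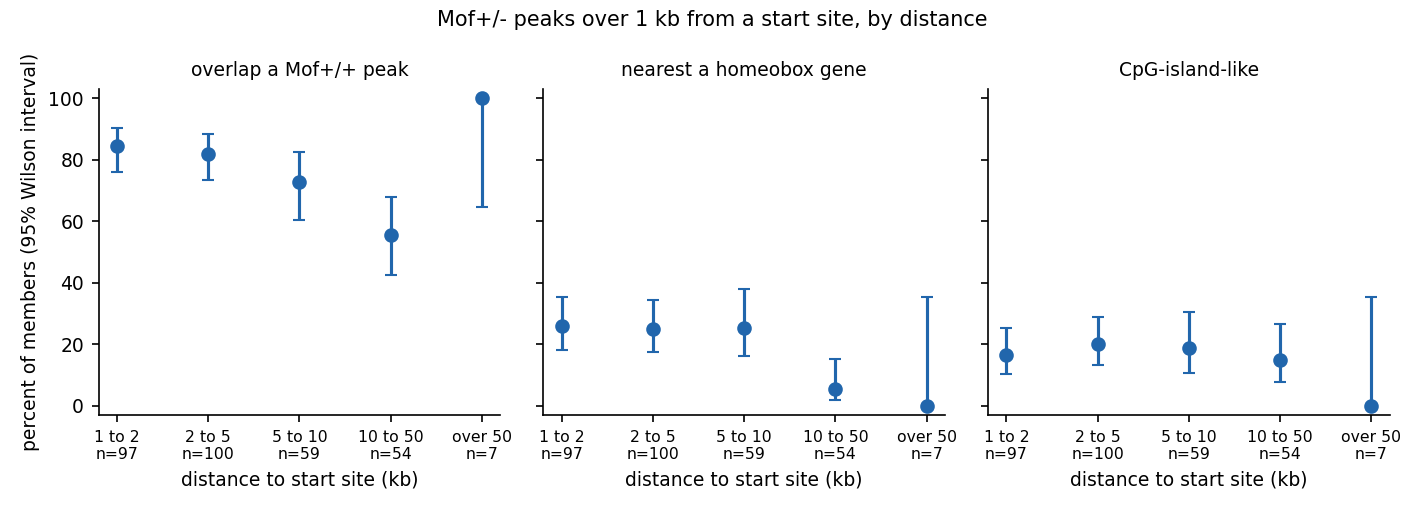
Percent of members with 3 properties in 5 bands of distance to the nearest start site; points are shares and bars 95% Wilson intervals, with the number of peaks under each band. Overlap falls from 84.5% at 1 to 2 kb to 55.6% at 10 to 50 kb, and the share nearest a homeobox gene is 5.56% at 10 to 50 kb against 25.0 to 25.8% in the 3 nearer bands.

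The summit was intergenic in 143 members (45.1%, 39.7 to 50.6) and in an intron in 111 (35.0%, 30.0 to 40.4). It lay in an untranslated or noncoding exon of a coding gene in 35, in an exon of a noncoding gene in 15 and in a coding exon in 13. Among the 8722 Mof+/+ peaks over 1 kb away, 34.4% were intergenic and 55.9% intronic. Intergenic members overlapped a Mof+/+ peak in 79.0% and intronic ones in 67.6% (58.4 to 75.6). Of the 143 intergenic members, 84 were upstream of the nearest start and 59 downstream of it.

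Homeobox genes, which encode transcription factors that set body axes and organ identity, were the most frequent neighbours among the 14 gene lists counted. A homeobox gene had the nearest start for 68 unique members (21.7%, 17.5 to 26.5) and 40 different homeobox genes took part. Over all 716 Mof+/- peaks the share was 18.9%, so the members were close to the list as a whole. Over the 8722 Mof+/+ peaks away from promoters it was 1.44% (1.21 to 1.72). When start sites of protein-coding transcripts alone were used, 93 members were nearest a homeobox gene. This was 29.3% of all members, against 25.8% of all 716 Mof+/- peaks. Antisense and predicted genes such as Dlx1as and Gm27605 otherwise take the place of Dlx2 and Hoxb13.

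Members by homeobox genes had a median fold enrichment of 4.66 and a median width of 641.5 bp, against 4.29 and 407 bp for the other 249. They overlapped a Mof+/+ peak in 86.8% (76.7 to 92.9), and the others in 74.3% (68.5 to 79.3). The Mof+/+ peaks that they overlapped had a median fold enrichment of 3.92, and those of the others 4.60. With Evx genes, which adjoin the Hox clusters, 26 members had a Hox or Evx gene as the nearest protein-coding gene. This count was not compared with promoter peaks or with the whole Mof+/- list, so nothing particular to the members is read from it.

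Other lists of developmental regulators had fewer members, and a list does not hold every gene of its family. Outside all the lists were Mecom (2 members, up to 7.42) and Sim2 (3 members, up to 5.82). Forkhead genes were nearest to 2.21% of members and 1.96% of all 716 Mof+/- peaks, and T-box genes to 1.26% and 1.82%. The zinc finger list had 2.21% and 3.07%. The Sp and Klf list had 2.21% and 1.26%, and the Gata and Wt1 list 1.26% and 0.56%. With at most 7 members in each list, no difference from the whole list is read from these shares. Forkhead genes were nearest to 7 members, led by Foxc1 (fold enrichment 7.05), the antisense transcript Foxl2os at an exon of Foxl2 (7.05) and Foxa1 (5.83). The Sp and Klf list had 7, of which 5 were at Sp9 and the others at Sp6 and Sp8. The list of zinc finger regulators of development, which did not hold Mecom, had 7, led by Sall3 (6.44), Osr2 (5.21) and Zic5 (5.21). The T-box list had 4, 3 of them at Tbr1 and 1 at Tbx18, which overlapped no Mof+/+ peak but was 112 bp from one. The Gata and Wt1 list had 4, led by Wt1 (5.52) and followed by Gata4 (5.21 and 4.78). Sox genes had 2, Sox17 and Sox14, both at 4.60. The basic helix-loop-helix list, which did not hold Sim1 or Sim2, had 2, both at Neurog2 (5.21 and 4.60). Over all 716 Mof+/- peaks the Sox list had 3 and the basic helix-loop-helix list 5. Of the replication-dependent histone genes Hist1h4d had 1 (4.94, with the summit in Hist1h2be), and of the list with Igf2bp, Lin28, Hmga and Zfp36 genes Igf2bp3 had 1, where all 716 peaks had 1 and 4.

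Genes of adipocyte lipid metabolism and adipokines had 0 of the 317 members, which by a limit of 3 peaks allows a share of up to 0.946%. Immune cell genes, developmental ligands with their inhibitors, and the MSL and NSL complex genes also had 0. Over all 716 Mof+/- peaks the counts were 0 for the adipocyte list, 4 for immune genes, 1 for ligands and 0 for the MSL and NSL genes, and nothing particular to the members is read from the zeros. Of the Mof+/+ peaks away from promoters, 27 (0.31%) were nearest an adipocyte gene and 106 (1.22%) an immune gene. Of 27 marker genes for adipocytes, B cells, T cells, macrophages, endothelium and mesothelium, 2 had a member nearest to them. Pax5, a B cell factor that also stands in the homeobox list, had 2 members and Wt1, found in mesothelium, had 1. No Mof+/- peak was nearest Kat8, the targeted gene, so the deletion could not be checked from this list.

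Some of the members lay in groups along the genome. When members within 50 kb of each other were joined, the 317 formed 199 loci. Of these 137 held 1 member, 38 held 2, 19 held 3 to 5 and 5 held 6 or more. The 5 largest loci held 39 members. With peaks at most 1 kb apart merged, the number of members was 232. The grouping was not compared with that of promoter peaks or of Mof+/+ peaks. In all, 21 genes were nearest to 3 or more unique members and together accounted for 74 of them.

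The largest locus was that of Evx2 and the Hoxd genes on chromosome 2, with 10 members over 40.1 kb and 7 Mof+/- promoter peaks within 50 kb. Evx2 had 5 of these members, from 3.68 to 6.75 in fold enrichment, and 4 overlapped a Mof+/+ peak. The locus of Hoxa13 and Evx1 on chromosome 6 had 8 over 68.2 kb. At Malat1 and Neat1 on chromosome 19, the genes of abundant nuclear noncoding RNAs, there were also 8, over 52.2 kb. All 8 overlapped a Mof+/+ peak. At Neat1 itself the 3 members had fold enrichments of 3.32, 4.07 and 5.21, and 3 others inside Neat1 were assigned to Gm27533 (3.44, 3.99 and 4.60). Neat1 is known for building paraspeckles, bodies within the nucleus.

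At Mir148a, a microRNA gene known for its expression in adipose tissue, 6 members lay between 85351 and 97988 bp from the start, all on its downstream side and all intergenic. Their fold enrichments were 4.91, 7.36, 6.06, 4.91, 5.24 and 6.43 in the order of distance. No Mof+/- promoter peak lay within 50 kb of them. The widest member of all, at chr6:51178842-51182676 and 3835 bp long, was the second of them, with 23 fragments over 2.26. All 6 overlapped Mof+/+ peaks, 3 of them a single one of 7419 bp with a fold enrichment of 7.08. The nearest protein-coding start, of Nfe2l3, was 248111 bp or more away.

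**Figure D3:**
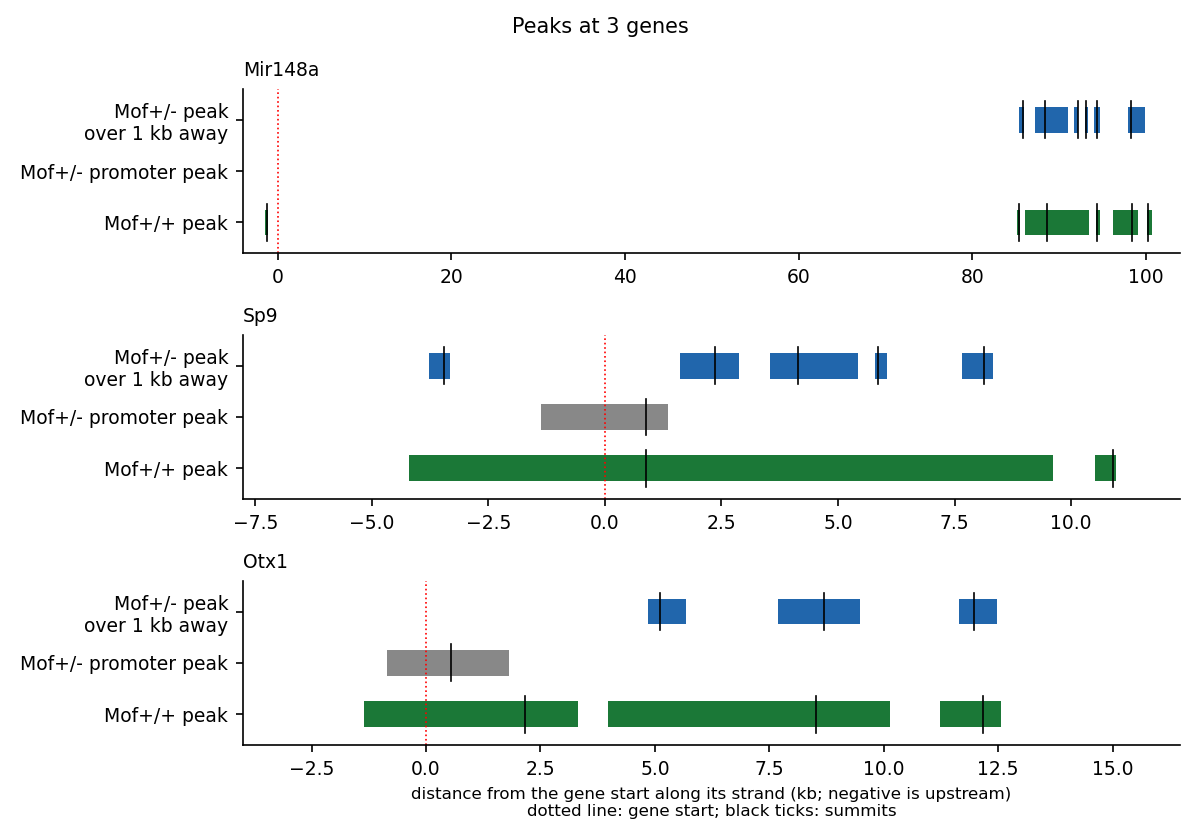
Peaks at Mir148a, Sp9 and Otx1 by their distance from the gene's start along its strand, in kb, with negative values upstream; blue bars are Mof+/- peaks over 1 kb from a start, grey bars Mof+/- promoter peaks, green bars Mof+/+ peaks and black ticks summits. At Sp9 the 5 members and the promoter peak lie within 1 Mof+/+ peak, while at Mir148a the 6 members stand 85351 bp or more from the dotted start with no promoter peak.

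Among the other genes with 3 or more unique members, Nkx6-1 had 4 (3.46 to 5.21), all overlapping Mof+/+ peaks. Irx5 had 3 within its intron (4.91, 5.77 and 5.83), Otx1 had 3 (3.96, 4.94 and 9.51), Hmx2 had 3 (3.71, 4.71 and 10.1) and Lhx9 had 3 (3.44, 3.87 and 4.66). Gata4 had 3 (3.61, 4.78 and 5.21), Sim2 had 3 (4.29, 4.60 and 5.82) and Tbr1 had 3 (3.99, 4.29 and 4.29). Gm4675 by Sox21, Gm27605 by Hoxb13, Gm11809 by Chd7 and Gm37820 had 3 each. Spag6, whose 3 members included 1 with Bmi1 as the nearest protein-coding gene, had values of 2.78, 4.30 and 6.13. Coro2a, which encodes an actin-binding coronin, had 3 unique members (3.21, 3.96 and 4.91) beside the repeat-rich one. Gm39041 had 4 (3.21, 3.21, 3.99 and 4.60), all in introns of Abhd2, and none of these 4 overlapped a Mof+/+ peak, while each of the other 20 genes had at least 2 members that did. The nearest Mof+/+ peak was 466 to 11566 bp from them.

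The 73 members without a Mof+/+ peak were weaker and narrower. Their median fold enrichment was 3.99 (3.68 to 4.37) against 4.37 (3.99 to 4.95), from 13 against 15 fragments, and their median width 333 bp against 517.5 bp. They lay farther from a start, 6035 bp against 2957.5 bp at the median. A Mof+/+ peak was within 1 kb of 22 of them, and for 23 the nearest was more than 10 kb away, for 7 more than 100 kb. The ranges of fold enrichment overlapped, from 2.80 to 5.52 without and from 1.31 to 10.1 with a Mof+/+ peak.

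Of unique members without a Mof+/+ peak, the one in an intron of 1700041M19Rik at chr16:76865934-76866266 had the highest significance and a fold enrichment of 5.52 from 17 fragments. Its longest exact tandem run, of CT, was 67 bases, and the nearest Mof+/+ peak was 147512 bp away. The next 5 shared a fold enrichment of 4.91 from 15 fragments. They were at chr8:121879853-121880318 (nearest Slc7a5, an amino acid transporter gene), chr10:42590700-42591134 (in Ostm1), chr7:127239715-127239971 (by Zfp771), chr4:3930229-3930512 (in Plag1) and chr1:166491254-166491553 (in Gm4846). Their distances to a Mof+/+ peak ran from 1574 bp at Plag1 to 81450 bp at Gm4846. Exact tandem runs of at least 30 bases, with a unit of 1 to 4 bases, were in 8 of the 73 (interval 5.66 to 20.2%) and in 16 of the 244 (4.08 to 10.4%), intervals that overlap. The share was 8.52% over all 716 Mof+/- peaks and 9.27% in promoter peaks.

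Members with and without a Mof+/+ peak also differed in sequence. CpG dinucleotides within 250 bp of the summit, relative to the number expected from G and C content, had a median of 0.506 (0.303 to 0.694) in members with a Mof+/+ peak and 0.240 (0.151 to 0.435) in members without. It was 0.692 in promoter peaks, 0.227 in Mof+/+ peaks away from promoters and 0.191 over chromosomes 1 to 19 and X. G and C content was less apart, at 48.5%, 45.5%, 54.1%, 48.5% and 41.8% in the same order. A CpG-island-like summit, with G and C of at least 50% and a CpG ratio of at least 0.6, was found in 17.2% (13.4 to 21.8) of the unique members. The share was 33.7% over all 716 Mof+/- peaks, 46.6% in promoter peaks and 3.51% (3.14 to 3.92) in Mof+/+ peaks away from promoters. Of all members with such a summit, 50 of 55 overlapped a Mof+/+ peak.

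The median density of sites of the cutting enzyme in the members was below the value over the genome. These are unlike measures. Genome values, here and for G and C and CpG above, are pooled over all bases, while the others are medians of single peaks. CviKI-1 sites had a median density of 12.2 per kb in all members, 12.8 per kb in members with a Mof+/+ peak and 8.82 (3.77 to 14.6) in members without, against 14.7 in promoter peaks and 15.0 over the genome. In Mof+/+ peaks away from promoters the median was above the genome value (quartiles 13.4 and 23.0). Bases masked as repeats in the reference had a median of 12.8% and 16.4% in the members with and without a Mof+/+ peak, and made up 34.3% of the genome. The part of cutting in these differences was not tested.

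**Figure D4:**
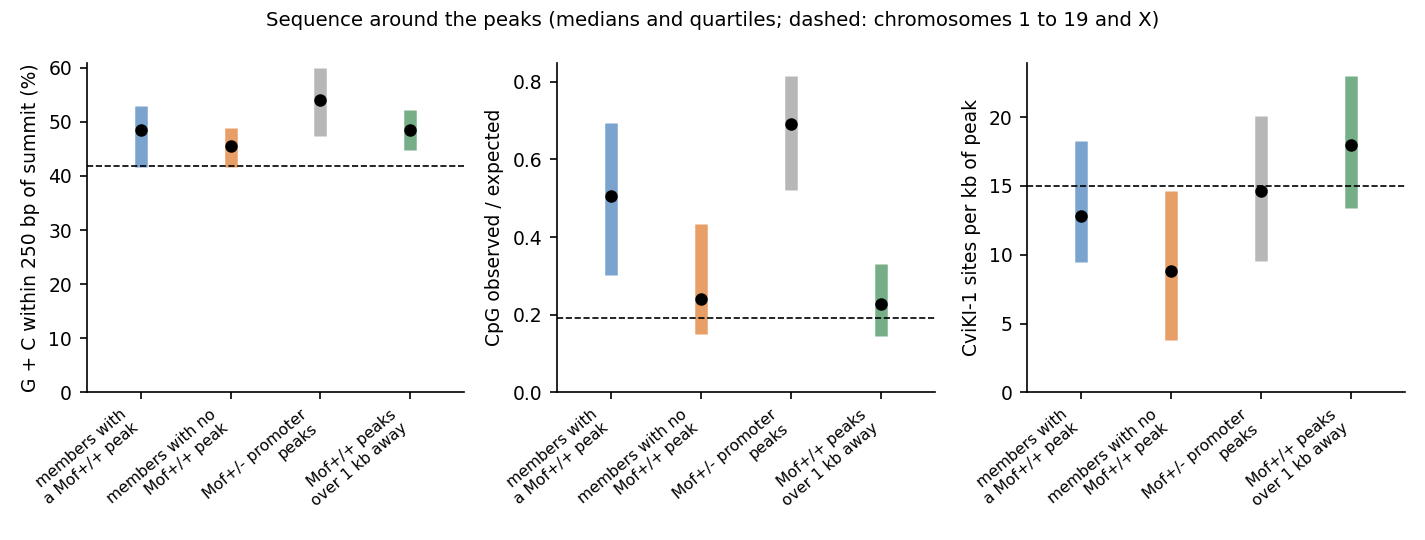
Medians (points) and quartiles (bars) of G and C content, CpG observed over expected and CviKI-1 sites per kb in 4 sets of peaks, with the value for chromosomes 1 to 19 and X as a dashed line. The median CpG ratio of members with a Mof+/+ peak, 0.506, lies between promoter peaks and Mof+/+ peaks away from promoters, and members without one have the fewest CviKI-1 sites, 8.82 per kb.

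The 3 repeat-rich members were of different kinds. The one at chr9:3006287-3008036, near the predicted gene Gm11168, lay in a tandem array in which 87.5% of the 50-base words were repeated and almost all bases were masked as repeats. The best-matching offset was 233 to 237 bases in 12 windows of this peak, with a median identity of 57.1% at that offset, close to the unit length known for the pericentromeric major satellite of mice. Its fold enrichment was 1.45, from 1073 fragments over a background of 740.6. The Mof+/+ peak there had its summit 2 bp away and 1438 fragments over 1218, a fold enrichment of 1.18. Its repeated words occurred 16865 times elsewhere in the assembly, 8830 of these at chr9:3008103-3038281 beside it.

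The second, in an intron of Coro2a at chr4:46577086-46577425, had a fold enrichment of 3.78 from 12 fragments over 2.44. Of its 50-base words 65.6% were repeated, with 181 found together at chr6:68244382-68244715 and 86 at chr12:92890110-92890449. A unique member at chr4:46580980-46581275, also intronic in Coro2a, had too few repeated words for that class, with copies at chr6:68248221-68248413 and chr12:92886412-92886591. The third, at chr16:57391320-57391567 in an intron shared by Filip1l and Cmss1, had 55.6% repeated words, which recurred in 15 places on 11 chromosomes. It had a G and C content of 62.5% and 0.0% masked bases. Its fold enrichment was 2.80 from 53 fragments over 18.3. Neither of these overlapped a Mof+/+ peak, and the nearest was 1781 bp from the Coro2a peak and 29736 bp from the Filip1l peak.

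A further member behaved like the array by its background. At chr14:19415873-19417006, near Gm21738, 822 fragments stood over 626.7, a fold enrichment of 1.31, the lowest of all members. The Mof+/+ peak there had the higher fold enrichment, 1.51 from 608 fragments over 401.5. Only 12.2% of its 50-base words were repeated exactly, so it counted as unique, but 81.4% of its bases were masked and 410 repeated words of the chromosome 9 array recurred around it. The other 314 members, the one at Coro2a included, had a background under 6 fragments, and 3 had more.

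**Figure D5:**
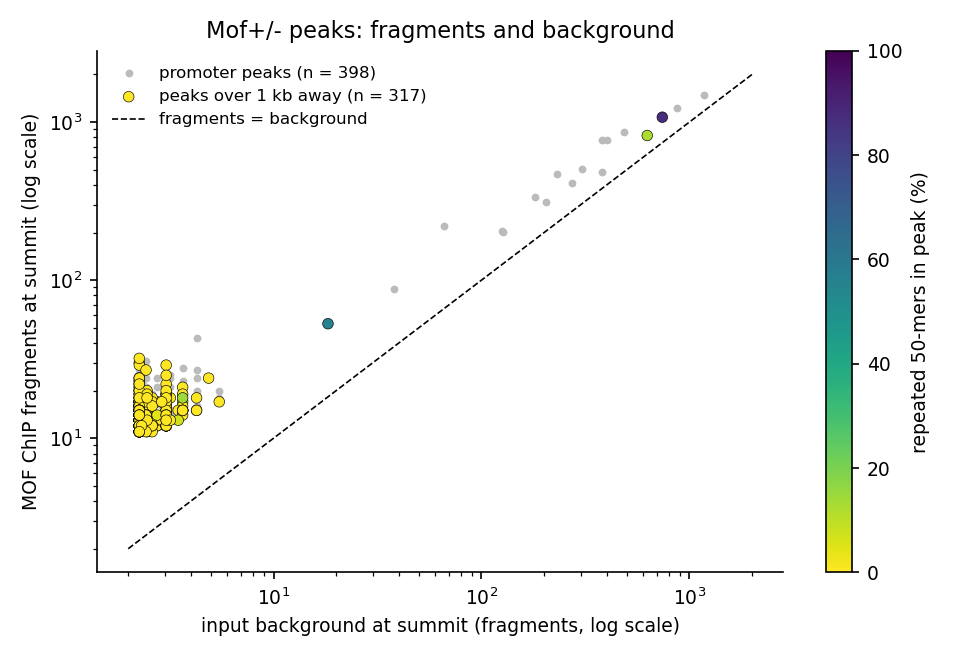
MOF ChIP fragments at the summit against the input background there, both on log scales, for the 317 members (coloured by the percent of repeated 50-base words) and the 398 promoter peaks with a solved background (grey). All but 3 members sit under a background of 6, and the 2 at the upper right, with 1073 and 822 fragments, lie close to the dashed line of equal fragments and background.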

How the data were processed

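MOF ChIP-seq was made from visceral white adipose tissue, with 2 libraries for each genotype by the labels. The authors mapped the reads to GRCm38 and called peaks with MACS2 (2.1.1.20160309.3 in the submitters' processing notes) against input at a q-value of 0.1; how libraries were combined before calling is not given in the sources used here. The study's methods also merged peaks up to 1 kb apart, but the deposited lists hold separate peaks closer than that, in both genotypes. The deposited lists hold, for each peak, the fold enrichment (a ratio to the local input background), −log10 p-values and q-values at the summit, and the summit offset. The deposited score column was not used, and the H3 and input libraries were not analysed here.

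Fragments and background at each summit were solved from the deposited fold enrichment and −log10 p-value, after testing on 500 simulated summits. Start sites were those of GENCODE M21, and distances ran from the peak edge. Peaks overlapped when they shared 1 bp. Peaks with 50% or more of 50-base words repeated were repeat-rich. G and C content and the ratio of observed to expected CpG were taken within 250 bp of the summit, and CviKI-1 sites over the whole peak. Sequences came from the GRCm38 assembly. Python 3.11.15, numpy 2.4.6, pandas 2.3.3, scipy 1.17.1, numba 0.67.0 and matplotlib 3.10.9 were used.

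Peaks and genes were named by a rule. It took the 10 members of highest fold enrichment among unique and among repeat-rich members, the 5 of highest −log10 q in each class without a Mof+/+ peak, genes nearest to 3 or more unique members, up to 3 members of each gene list, and the members nearest to and farthest from the limit. Other names, and the counts of tandem runs, were chosen after the values were seen. The members and gene lists were chosen with earlier results of these data known. Members of 1 locus that the rule names are not reported here. With 1 list a genotype no test was run, and 37 alternative settings were tried.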

Additional observations from a re-analysis of the deposited data

How the results depend on the processing

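Of 37 alternative settings, 21 moved a value by less than its counting interval or 1.5 times a count, and 16 moved it further. The number of members was 169 with start sites within 3 kb taken as promoters and 155 with a q-value limit of 0.001. The repeat-rich share was 0.315% when 75% of words had to be repeated and 4.10% when 50% of bases in lower case was asked for. Overlap with a Mof+/+ peak was 14.8% for 50% of both peaks, 71.3% for the summit inside, 83.9% within 1 kb and 71.0% against Mof+/+ peaks under a q-value limit of 0.01. The share of unique members that overlapped a Mof+/+ peak that reached a start was 20.7% when the peak had to cover the start, and a Mof+/- promoter peak was within 5 kb of 33.1%. CpG-island-like summits were 8.92% at 55% G and C and a ratio of 0.65. Homeobox genes were nearest to 29.6% with protein-coding starts, and 29.6% had a homeobox start within 50 kb. The median fold enrichment was 4.60 under a q-value limit of 0.01 and 2.80 for repeat-rich members. Intergenic summits were 54.9% with protein-coding genes only. The cause of these changes was not tested. No paired analysis was possible because the peak lists analysed here hold 1 list a genotype, with no replicate column, and for the same reason no library could be left out. The fewest fragments behind a member were 11.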
